A study of Rattus norvegicus with 4 samples.

Results

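Glycolysis and glycogen metabolism were followed through 37 genes, chosen by name from glucose uptake to lactate and from glycogen synthesis to glycogen breakdown. Of these, 34 had at least 1 probe set of their own on the array, 47 probe sets in all, out of 10411 genes named there. A probe set is the group of short oligonucleotides that reads 1 transcript. Each gene is described by its brightest probe set, the one with the highest mean over all 4 arrays, and its other probe sets are given beside it. Gapdh was read under its own name by Affymetrix control probe sets alone, which are given apart. Pkm, the pyruvate kinase of muscle, whose probe set is annotated to a pseudogene as well, and Ppp1r3c, which targets phosphatase to glycogen, were not analysed here.

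The cells were ventricular myocytes of newborn rats, the contractile cells of the heart chambers, grown in culture. The 2 fibronectin samples grew on a coating of fibronectin, an extracellular matrix protein recognised by integrins, and the 2 control samples on bare dishes. Serum at 10% was present for the first 24 h in both groups and absent for the following 48 h. The study's title concerns hypertrophy, and the comparison asks which transcripts differ with the coating. The labels used here name no strain, number of animals or separate cultures, so p-values measure only the spread between these arrays, which may be technical.

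Glycolysis splits glucose into pyruvate, yielding ATP without oxygen, and lactate dehydrogenase converts pyruvate to lactate and back. Glycogen is the branched glucose store that synthase and branching enzyme build and that phosphorylase breaks down to glucose phosphate. The newborn heart relies on glycolysis and lactate more than the adult heart, which burns mainly fatty acids, and several steps are served by isoforms typical of muscle, brain or many tissues.

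Signals are log2 values after quantile normalization, with a floor of 4.55 below which values have no order. They compare the same probe set between arrays and not one gene with another. Fibronectin replicate 2 stood apart, with correlations of 0.775 to 0.794 with the other arrays over 9519 probe sets, whereas the others correlated at 0.847 to 0.910 with each other. Over all genes tested, 20.6% lay above both controls on both fibronectin arrays and 17.2% below. Of 12 myocyte markers, 11 had a probe set, all 11 passed the filter on dim probe sets, and 4 lay above both controls. Their summed signal was 93016 and 91282 on the fibronectin arrays, against 85225 and 75625 on the controls. Fibroblast markers summed to 19488 and 31995 on the fibronectin arrays, against 33671 and 50444 on the controls, and 7 of the 12 lay below both controls. Macrophage and leukocyte markers summed to 1105 and 1503 on fibronectin, below the 1572 and 2026 of the controls, with 2 of the 6 that passed the filter below both controls and 0 above. In the remaining marker lists the sums on the 4 arrays ran from 198.8 to 366.4 for endothelium, from 289.9 to 444.8 for erythroid cells, from 6553 to 7743 for skeletal muscle and from 512.8 to 707.5 for neural cells. The skeletal muscle sum came mainly from Myh1, at 11.55 to 12.09, and Ckm, at 11.50 to 11.95. Of the 9 genes of that list with a probe set, 3 passed the filter, so the sum says little about skeletal muscle cells. Smooth muscle markers summed to 7506 and 9955 on fibronectin and to 6499 and 11557 on the controls, and 1 marker of all lists, a skeletal muscle one, was at the floor on every array. In samples of whole cultures, fewer cells of a type and less RNA per cell cannot be told apart. The part of these marker levels in the results below was not tested.

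Among the 30 member genes whose brightest probe set passed the filter, most values on the 2 fibronectin arrays spread around those of the controls. Glycogen phosphorylase Pygm was lower on fibronectin in all 3 of its probe sets, and the kinase gene Gsk3b was higher. Neither gene passed the adjusted test given below. Gsk3b passed the filter only through its fibronectin values, since its control mean was 5.57. Of the 20 tested glycolytic genes, Pgk1, Pgam1 and Pfkp were above both controls on both fibronectin arrays, and Slc2a3, Pfkfb2 and Ldhb were below both. Over the 30 genes, 14 differences were positive and 16 negative, with a median log2 difference of -0.05, against 0.02 over the 7101 genes tested. Relative to each gene's control mean, the members' median was -0.06 and 0.12 on the fibronectin arrays, against 0.12 and -0.12 on the controls. Without quantile normalization, on the deposited scale, the members' median difference was 0.20, so its sign depends on the scaling. On that scale the median over all tested probe sets was 0.06.

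In limma's test with Benjamini-Hochberg adjustment over all probe sets, 0 of the 30 genes passed a threshold of 0.05, as did 0% of the 7101 genes. The lowest adjusted p of a brightest probe set was 0.594, for Pygm. At an unadjusted p under 0.05, 1 of the 30 genes, Pygm, was lower and 0 were higher, where 2.65% of all genes were lower and 3.03% higher. Both fibronectin arrays exceeded both controls for 5 genes, or 16.7%, against 20.6% of all genes. They lay below both controls for 5 genes, again 16.7%, against 17.2% of all genes. A log2 difference of at least 1 without overlap was found for 2 genes, Pygm and Gsk3b, or 6.67%, against 7.58% of all genes. Gsk3b and Slc2a3 are in these counts and passed the filter, which asked for a mean log2 signal above 6.01, through the group in which they were higher. The shares were near the background. An exact permutation test of 1 gene, two-sided, cannot go below p = 0.333 with 2 arrays against 2.

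**Figure D1:**
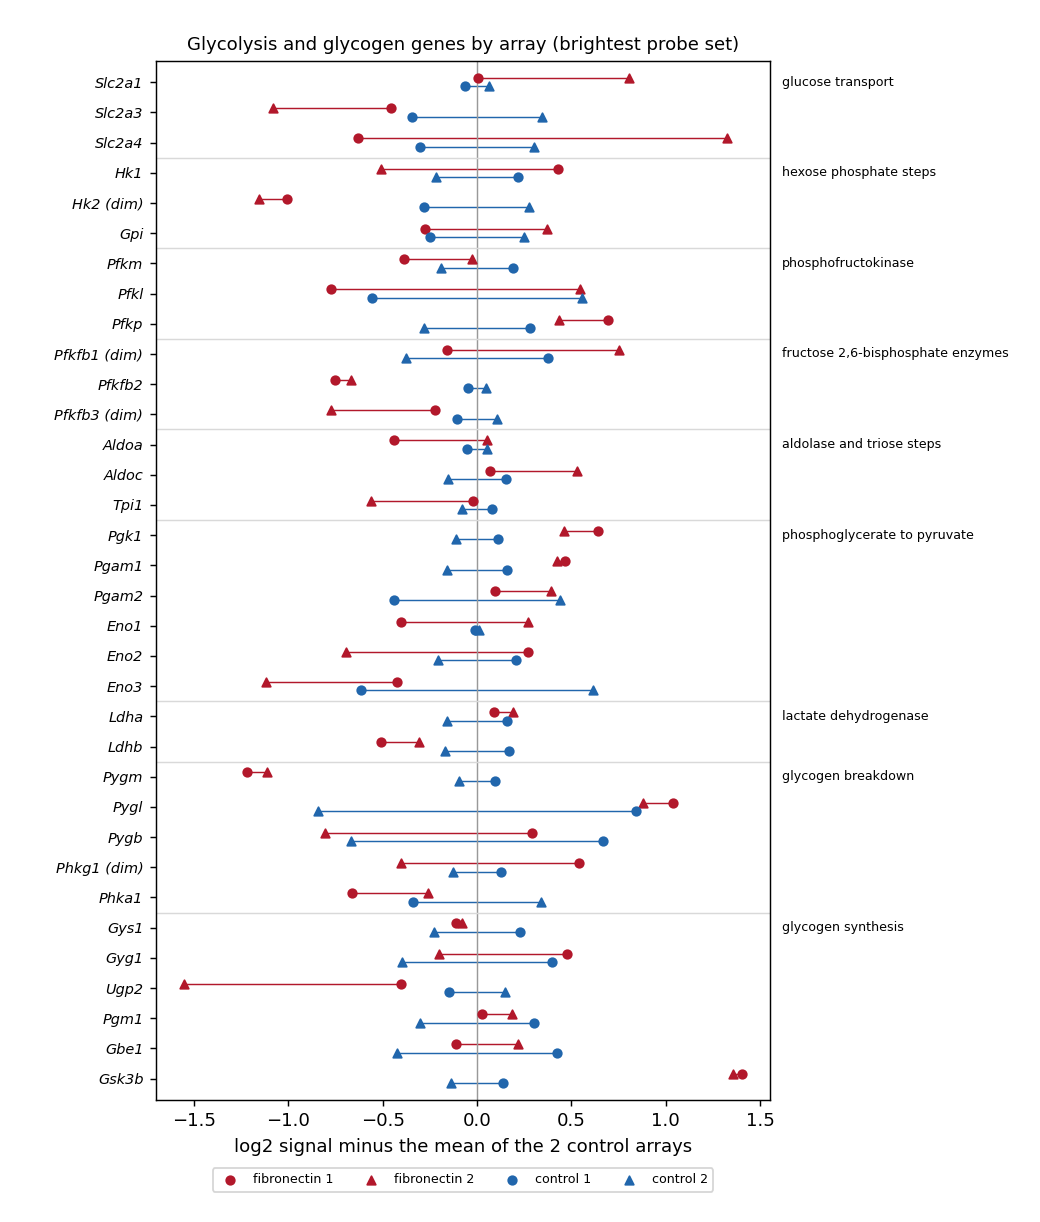
Log2 signal of 34 genes by array, each minus the mean of its 2 control arrays, for the brightest probe set. Red symbols are fibronectin arrays and blue symbols controls, circles are replicate 1 and triangles replicate 2, and lines join the arrays of a group. The pairs for Pygm and Gsk3b lie farthest apart among genes that passed the filter, at -1.17 and 1.38, and 4 genes marked dim were left out of the test.

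Promoters are shown for Pygm, Pgam1 and Gsk3b, 3 examples in both directions from the genes whose brightest probe sets were free of overlap. The 3 were picked by hand and all hold the sequence marked below. Promoters of the other genes free of overlap are not shown, so these examples do not tell how common it is among them. Each run is the 250 bases before the annotated start, read 5′ to 3′ on the gene's strand, from RefSeq on build GRCr8. Capitals mark ACGTG or its reverse complement CACGT, which may overlap. ACGTG is a core of the response element bound by hypoxia-inducible factor, a known regulator of glycolytic genes, and is also found in E-boxes bound by other factors. Pygm lies at chr1:213119555-213119804 (+), Pgam1 at chr1:250672902-250673151 (+) and Gsk3b at chr11:76153250-76153499 (-).
Pygm: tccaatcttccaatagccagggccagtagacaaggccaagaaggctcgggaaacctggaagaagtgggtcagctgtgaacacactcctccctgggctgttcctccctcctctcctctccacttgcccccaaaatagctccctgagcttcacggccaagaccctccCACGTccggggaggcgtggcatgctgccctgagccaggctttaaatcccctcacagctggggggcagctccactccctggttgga
Pgam1: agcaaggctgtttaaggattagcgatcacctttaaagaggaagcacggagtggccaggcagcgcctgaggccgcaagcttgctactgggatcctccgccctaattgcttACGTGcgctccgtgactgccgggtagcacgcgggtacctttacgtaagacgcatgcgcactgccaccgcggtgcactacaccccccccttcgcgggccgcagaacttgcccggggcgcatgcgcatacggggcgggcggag
Gsk3b: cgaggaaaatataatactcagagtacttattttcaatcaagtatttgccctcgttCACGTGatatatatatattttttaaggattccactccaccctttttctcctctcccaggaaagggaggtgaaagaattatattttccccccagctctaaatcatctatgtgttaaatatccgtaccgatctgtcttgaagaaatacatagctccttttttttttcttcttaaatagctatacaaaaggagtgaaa

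The match begins 85 bases before the start in Pygm, 141 in Pgam1 and 195 in Gsk3b, where both orientations overlap. Promoter entries were looked up for all 37 members, including those without a probe set of their own. The 34 members found are not the same 34 that had a probe set. Of the 34 member genes with a promoter entry, 19 held ACGTG on either strand in this window, or 55.9%. Of the 8631 genes named on the array with an entry, 1922 did, or 22.3%, and 16.6% of all 33469 promoters listed by RefSeq did. These matches describe letters in the window and not bound sites, and they occur in genes that were higher and in genes that were lower on fibronectin.

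Glucose transporters did not share a direction. Slc2a1, the transporter GLUT1 of fetal and proliferating cells, read 8.07 and 8.87 on the fibronectin arrays, against 8.0 and 8.13 on the controls, a difference of 0.41 (SE 0.40). The groups overlapped, and without fibronectin replicate 2 the difference was 0.01. Slc2a4, the insulin-responsive GLUT4 of muscle, read 6.35 and 8.31 on fibronectin and 6.68 and 7.28 on the controls, so that the controls lay between the fibronectin arrays. Its difference was 0.35 (SE 0.68), and -0.63 without fibronectin replicate 2. Its other tested probe set read 7.51 and the floor of 4.55 on fibronectin, against 7.44 and 6.67 on the controls, a difference of -1.02 (SE 0.95). Fibronectin replicate 2 was thus the highest of the 4 arrays in one probe set of Slc2a4 and the lowest in the other.

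Slc2a3, the high-affinity transporter GLUT3 of neurons, read 6.13 and 5.50 on the fibronectin arrays, against 6.24 and 6.93 on the controls. The groups did not overlap, but the difference of -0.77 (SE 0.67) was near its standard error, and the fibronectin mean of 5.82 lay under the filter's level. Its second probe set, left out as dim, lay at 4.81 and at the floor on fibronectin and at 5.94 and 5.50 on the controls. Both probe sets were therefore lower on both fibronectin arrays.

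Hexokinases trap glucose in the cell as glucose 6-phosphate. Hk1, the isoform of brain and of the fetal heart, read 10.15 and 9.21 on the fibronectin arrays, against 9.94 and 9.50 on the controls, with the controls inside the range of the fibronectin arrays. The difference was -0.04 (SE 0.39), and 0.05 on the deposited scale. Hk2, the insulin-regulated isoform of muscle, was left out as dim. It read 4.70 and the floor on fibronectin and 5.43 and 5.99 on the controls, below both controls but so near the floor that the size is not measured. Gpi, which turns glucose 6-phosphate into fructose 6-phosphate, read 10.55 and 11.20 on fibronectin and 10.57 and 11.07 on the controls, a difference of 0.05 (SE 0.33) with full overlap.

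Phosphofructokinase commits the sugar to glycolysis and comes in muscle, liver and platelet isoforms. Pfkp, the platelet type, read 9.59 and 9.33 on fibronectin, against 9.18 and 8.62 on the controls. Both fibronectin arrays were higher, by 0.56 (SE 0.34), or 1.48-fold, with limma's Benjamini-Hochberg adjusted p = 0.771. Without control replicate 2 the difference was 0.28. Pfkl, the liver type, read 6.84 and 8.16 on fibronectin and 7.06 and 8.17 on the controls. In both groups replicate 2 was the higher array, and the difference was -0.11 (SE 0.58).

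Pfkm, the muscle type, gave contrasting readings in its 2 probe sets. The brighter one read 9.86 and 10.23 on fibronectin and 10.44 and 10.06 on the controls, a difference of -0.21 (SE 0.30) with overlap. The dimmer one read 4.84 and 4.71 on fibronectin, against 7.97 and 8.92 on the controls. Its fitted difference of -3.67 (SE 0.58) had an unadjusted p of 0.000271 and an adjusted p of 0.476 (limma, Benjamini-Hochberg), the lowest among probe sets of the members. The fibronectin values lay just above the floor, so the size is uncertain, and this probe set passed the filter through its control values.

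The bifunctional enzymes that make and remove fructose 2,6-bisphosphate, an activator of phosphofructokinase, were mostly dim. Pfkfb2, the isoform of heart, read 6.42 and 6.50 on fibronectin, against 7.12 and 7.21 on the controls. The arrays of each group agreed closely and did not overlap, and the difference was -0.71 (SE 0.48), 1.63-fold lower, with limma's Benjamini-Hochberg adjusted p = 0.772. Its 3 other probe sets were left out as dim, with differences of 0.63, -0.44 and -0.55 and arrays that overlapped. Pfkfb3, the inducible isoform, and Pfkfb1, the isoform of liver and muscle, had no probe set past the filter. Pfkfb3 read 5.95 and 5.40 on fibronectin and 6.07 and 6.28 on the controls in its brighter probe set, and Pfkfb1 read 5.30 and 6.21 on fibronectin and 5.83 and 5.08 on the controls. The arrays did not overlap for this probe set of Pfkfb3 and overlapped for Pfkfb1. The other Pfkfb3 probe set, also dim, read the floor and 6.78 on fibronectin and 5.99 and 5.88 on the controls, a difference of -0.27 with overlap.

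Aldolase splits fructose bisphosphate, and triose phosphate isomerase links its 2 products. Aldoa, the muscle aldolase, read 12.42 and 12.91 on the fibronectin arrays, against 12.81 and 12.91 on the controls. Its difference was -0.19 (SE 0.27) and 0.40 on the deposited scale, so no direction holds across scalings. Aldoc, the brain aldolase, read 9.67 and 10.13 on fibronectin and 9.75 and 9.44 on the controls, a difference of 0.30 (SE 0.32). Tpi1, the isomerase, read 10.96 and 10.42 on fibronectin and 11.06 and 10.90 on the controls, a difference of -0.29 (SE 0.29), and -0.02 without fibronectin replicate 2. The groups overlapped for all 3 genes.

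Pgk1, phosphoglycerate kinase, which makes the first ATP of the pathway, read 12.17 and 11.99 on fibronectin, against 11.64 and 11.42 on the controls. Both fibronectin arrays were higher, by 0.55 (SE 0.25), or 1.47-fold, with a 95% interval from -0.04 to 1.14 and limma's Benjamini-Hochberg adjusted p = 0.762. A second probe set, whose name marks probes that can match related transcripts, read 10.97 and 10.74 on fibronectin and 10.52 and 10.42 on the controls, a difference of 0.39 (SE 0.27). The remaining one, left out as dim, read 5.14 and 6.35 on fibronectin and the floor on both controls, at least 2.29-fold higher. All 3 probe sets of Pgk1 were thus above both controls, which held for 1 of the 378 genes with 3 or more probe sets, or 0.265%, and that gene is Pgk1. On the deposited scale the brightest differed by 0.96.

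Pgam1, the phosphoglycerate mutase of most tissues, read 11.81 and 11.77 on fibronectin, against 11.50 and 11.18 on the controls. The difference was 0.45 (SE 0.26), 1.36-fold higher, with limma's Benjamini-Hochberg adjusted p = 0.771. It ran from 0.29 without control replicate 2 to 0.61 without control replicate 1. On the deposited scale it was 0.80. Pgam2, the mutase of mature muscle, read 7.48 and 7.77 on fibronectin and 6.94 and 7.82 on the controls, a difference of 0.24 (SE 0.46) with overlap.

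Enolase makes phosphoenolpyruvate and has 3 isoforms. Eno1, the isoform of most tissues and of the fetal heart, read 11.08 and 11.76 on fibronectin and 11.48 and 11.50 on the controls. The controls lay between the fibronectin arrays, with a difference of -0.07 (SE 0.30) that was 0.29 on the deposited scale. Eno2, the neuronal isoform, read 7.90 and 6.93 on fibronectin and 7.83 and 7.42 on the controls, a difference of -0.21 (SE 0.47). Eno3, the muscle isoform, read 7.57 and 6.87 on fibronectin and 7.38 and 8.60 on the controls. Its difference of -0.77 (SE 0.52) was -0.16 without control replicate 2, and 1 fibronectin array lay above 1 control array.

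Lactate dehydrogenase is built from A and B chains. Ldha, the A chain favoured in fast muscle, read 11.82 and 11.92 on fibronectin and 11.89 and 11.57 on the controls, a difference of 0.14 (SE 0.26) with overlap. Ldhb, the B chain of the heart, read 12.48 and 12.68 on fibronectin, against 13.16 and 12.82 on the controls. Both fibronectin arrays were lower, by a log2 difference of -0.41 (SE 0.25), with limma's Benjamini-Hochberg adjusted p = 0.772. That direction does not hold across scalings, since the difference was 0.16 on the deposited scale and 0.11 when arrays were shifted to the same median.

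Glycogen breakdown held the member whose brightest probe set had the lowest p. Pygm, the muscle glycogen phosphorylase, read 9.12 and 9.23 on the fibronectin arrays, against 10.44 and 10.25 on the controls. The arrays of each group lay close together and the difference was -1.17 (SE 0.29), 2.24-fold lower, with a 95% interval from -1.83 to -0.50. Its unadjusted p was 0.00389 and its Benjamini-Hochberg adjusted p in limma was 0.594, so it did not pass. The difference ran from -1.26 to -1.07 when each array was left out in turn, and was -1.03 on the deposited scale.

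Both dimmer probe sets of Pygm were also lower, with larger differences. One read 6.27 and 7.40 on fibronectin and 9.24 and 9.74 on the controls, a difference of -2.65 (SE 0.47). The other read 6.56 and 7.97 on fibronectin and 9.06 and 10.21 on the controls, a difference of -2.37 (SE 0.57). Adjusted p-values (limma, Benjamini-Hochberg) were 0.510 for the first and 0.575 for the second of these probe sets. Of the 378 genes with 3 or more probe sets, 6, or 1.59%, had every probe set below both controls, Pygm among them. The direction was shared by the 3 probe sets, whereas the size ranged from 2.24-fold to 6.29-fold lower. The probe sets read the same RNA samples and are not independent observations. The 3′ to 5′ ratios of Gapdh and beta-actin, given below, also differed between the coatings, and their part in these values was not tested.

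**Figure D2:**
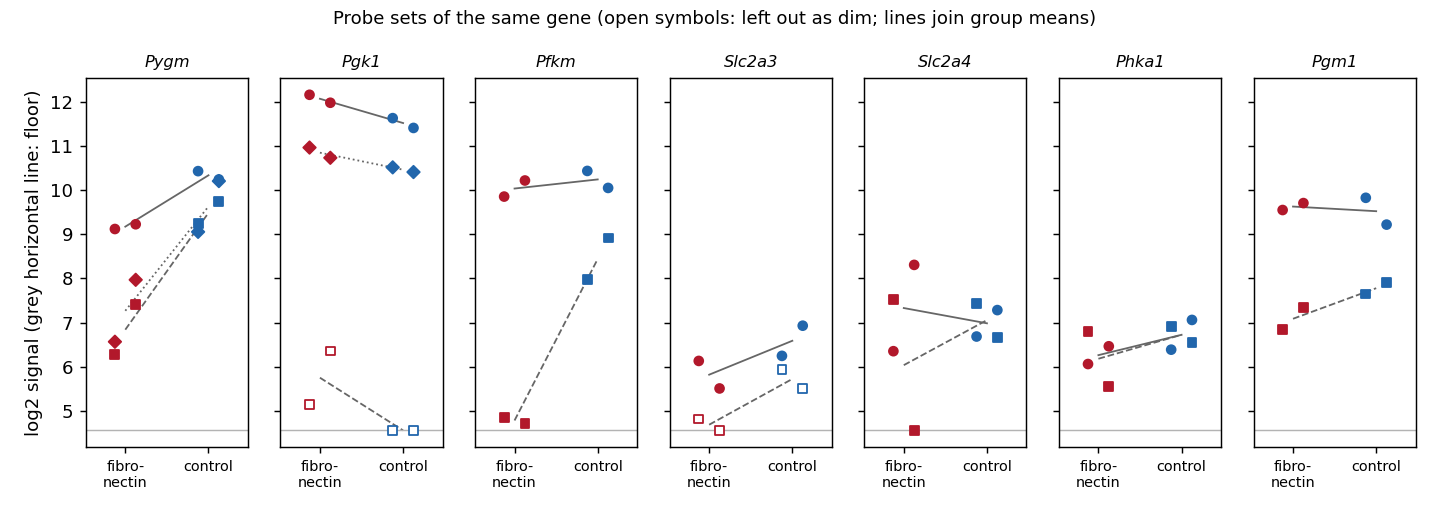
Log2 signal of each probe set of 7 genes with several, fibronectin arrays in red on the left and controls in blue on the right, with replicate 1 left of replicate 2. Circles are the brightest probe set, squares and diamonds the others, open symbols were left out as dim, and lines join group means. All 3 Pygm probe sets are lower and all 3 Pgk1 probe sets higher on both fibronectin arrays, while the probe sets of Pfkm differ by -0.21 and -3.67.

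The differences of the other phosphorylase isoforms had larger standard errors than that of Pygm, and isoforms were not tested against each other. Pygl, the liver isoform, read 7.79 and 7.63 on fibronectin, against 7.59 and 5.90 on the controls. Its difference of 0.96 (SE 0.60) rests on control replicate 2, without which it was 0.11. Pygb, the brain isoform, read 10.43 and 9.33 on fibronectin and 10.80 and 9.47 on the controls. In both groups replicate 1 was higher, by more than the difference of -0.26 (SE 0.52) between the groups.

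Phosphorylase kinase switches phosphorylase on. Phka1, its muscle alpha subunit, read 6.06 and 6.46 on fibronectin and 6.38 and 7.06 on the controls, a difference of -0.46 (SE 0.59). Its second probe set differed by -0.54 (SE 0.65), and the groups overlapped in both. Phkg1, the muscle catalytic subunit, was left out as dim, at 5.50 and the floor on fibronectin and 5.08 and 4.83 on the controls.

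Of the 6 tested glycogen synthesis genes, Ugp2 was below both controls, Gsk3b above both, and the other 4 overlapped. Ugp2, which makes the UDP-glucose that feeds synthase, read 9.12 and 7.97 on fibronectin, against 9.37 and 9.67 on the controls. Both fibronectin arrays were lower, with a difference of -0.98 (SE 0.43), 1.97-fold lower, a 95% interval from -1.98 to 0.02 and limma's Benjamini-Hochberg adjusted p = 0.762. Without fibronectin replicate 2 the difference was -0.40. Gys1, the muscle glycogen synthase, read 8.84 and 8.87 on fibronectin and 9.18 and 8.72 on the controls, a difference of -0.10 (SE 0.33). Gyg1, the glycogenin that primes each glycogen particle, read 12.75 and 12.08 on fibronectin and 12.67 and 11.88 on the controls. Replicate 1 was the higher array in both groups, and the difference was 0.14 (SE 0.36), or 0.61 on the deposited scale.

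Pgm1, which interconverts glucose 1-phosphate and glucose 6-phosphate, read 9.55 and 9.71 on fibronectin and 9.83 and 9.22 on the controls, a difference of 0.11 (SE 0.33). Its dimmer probe set read 6.84 and 7.33 on fibronectin and 7.65 and 7.91 on the controls, a difference of -0.69 (SE 0.42), so the 2 probe sets of the gene did not share a sign. Gbe1, the branching enzyme, read 8.91 and 9.24 on fibronectin and 9.45 and 8.60 on the controls, with a difference of 0.05 (SE 0.38) and overlap.

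Gsk3b, the kinase that inhibits glycogen synthase and is itself held back by insulin signalling, had the largest positive difference among the members. It read 6.98 and 6.93 on fibronectin, against 5.71 and 5.44 on the controls. Arrays of a group agreed closely and the groups did not overlap. The difference was 1.38 (SE 0.62), 2.60-fold higher, with a 95% interval from -0.06 to 2.81 and limma's Benjamini-Hochberg adjusted p = 0.762. It ran from 1.24 to 1.52 when each array was left out, and was 0.83 when an offset of 50 was added to the intensities. It passed the filter, at a mean log2 signal of 6.01, through its fibronectin values, since its control mean was 5.57. The gene had 1 probe set, which a stricter filter that leaves out the dimmest 60% removed.

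**Figure D3:**
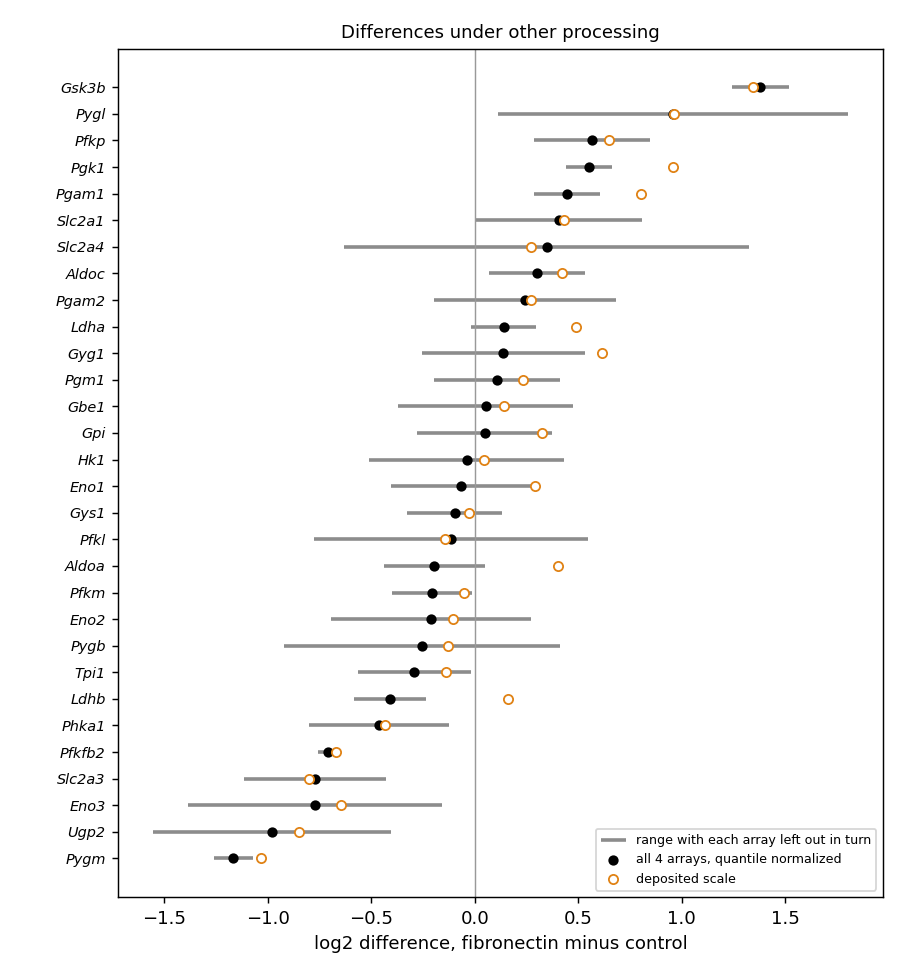
Log2 difference of 30 genes, fibronectin minus control, ordered by size. Black points are the values from all 4 arrays after quantile normalization, grey bars span the values with each array left out in turn, and open orange points are values on the deposited scale. The bar of Pygm runs from -1.26 to -1.07 and that of Gsk3b from 1.24 to 1.52. A bar cannot reach 0 for a gene whose groups do not overlap, as in these genes. The orange points of Hk1, Aldoa, Eno1 and Ldhb lie on the other side of 0 from the black ones.

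The Affymetrix control probe sets read Gapdh, the glyceraldehyde phosphate dehydrogenase of glycolysis, at its 3′ end, middle and 5′ end. On the deposited linear scale the 3′ probe set read 7397 and 7582 on fibronectin and 7601 and 7243 on the controls, which overlap. The middle one read 2872 and 4669 on fibronectin and 5447 and 6946 on the controls. The 5′ one read 1228 and 2151 on fibronectin and 4630 and 6309 on the controls, 3.33-fold lower on fibronectin. Signals thus differed between the groups more with each step away from the 3′ end. The 3′ to 5′ ratio was 6.02 and 3.52 on fibronectin, against 1.64 and 1.15 on the controls. For beta-actin, a second control transcript, it was 13.03 and 6.29 on fibronectin, against 1.46 and 1.40 on the controls.

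Hk1 was read in the same way by dim hexokinase control probe sets. The 3′ probe set read 25.7 and 54.6 on fibronectin and 142.7 and 119.1 on the controls, and the middle one 41.1 and 9.74 on fibronectin and 134 and 105.8 on the controls. The 5′ one read 8.27 and 7.79 on fibronectin and 37.9 and 28.9 on the controls. The 3′ to 5′ ratio was 3.11 and 7.0 on fibronectin and 3.77 and 4.12 on the controls. Both fibronectin 5′ values lay under 23.4, the floor applied to the normalized intensities. The fibronectin ratios are therefore not measured reliably, and their overlap with the controls does not show that Hk1 lacked a shift. All 3 probe sets lay below both controls, whereas the brighter probe set of Hk1 overlapped between the groups. The labels and files used here do not place the member probe sets along their transcripts. The ratios of Gapdh and beta-actin did not overlap between the coatings. The part of the 3′ to 5′ ratios in the lower values of Pygm and Pfkm, or in the values of any other gene given here, was not tested.

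**Figure D4:**
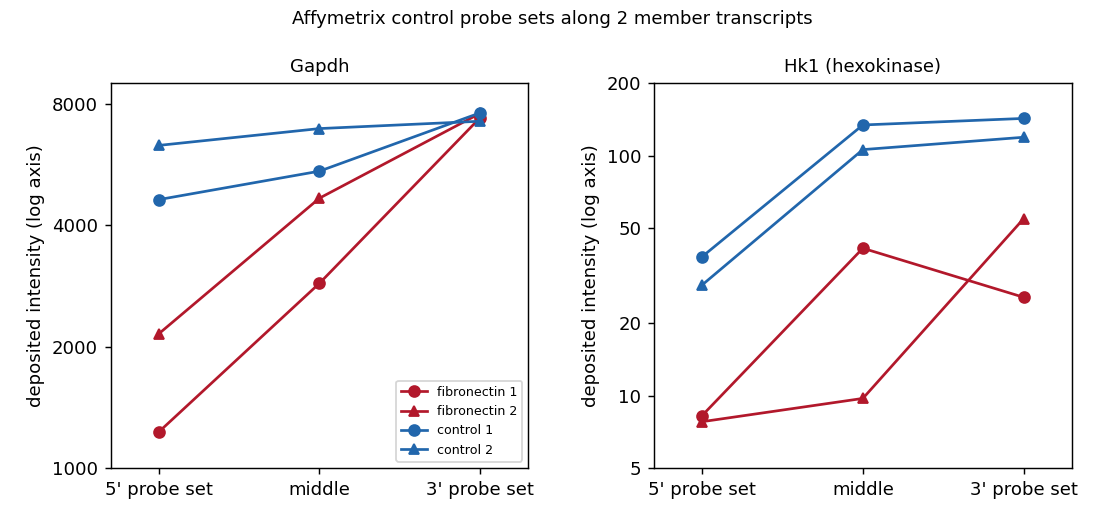
Deposited intensity, on a log axis, of the Affymetrix control probe sets for Gapdh (left panel) and Hk1 (right panel) from the 5′ end to the 3′ end. Red lines are fibronectin arrays and blue lines controls, with circles for replicate 1 and triangles for replicate 2. The 4 arrays meet at the 3′ end of Gapdh, between 7243 and 7601, and part toward the 5′ end.

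Genes around the pathway were read from lists of neighbours in metabolism, in which 0 genes passed limma's Benjamini-Hochberg threshold. Counts above or below both controls in each list stand beside 20.6% above and 17.2% below over all 7101 genes tested. Differences of 12 tested genes of pyruvate and lactate handling had a median of -0.30, with 4 genes below both controls and 0 above. Pdha1, a subunit of pyruvate dehydrogenase, read 10.49 and 10.56 on fibronectin and 11.60 and 11.37 on the controls, a difference of -0.96 (SE 0.26), with -2.22 in its other probe set. Dld, the dihydrolipoamide dehydrogenase of that complex, differed by -0.93 (SE 0.38). Pdk4, a kinase that shuts the complex off, was left out as dim, at the floor on both fibronectin arrays and at 6.78 and 6.76 on the controls, at least 4.66-fold lower.

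In the pentose phosphate and hexosamine branches, 7 tested genes had a median of 0.27, with 2 above and 3 below both controls. Taldo1, transaldolase, read 9.54 and 9.43 on fibronectin and 8.53 and 8.57 on the controls, a difference of 0.93 (SE 0.31). Gnpnat1, an acetyltransferase of hexosamine synthesis, differed by -2.02 (SE 0.73) with fibronectin replicate 2 at the floor, and Pgm3, a mutase of the same branch, by -0.42 (SE 0.63). Gnpnat1 and Pgm3 were the only tested hexosamine genes, and both differences were negative. The pentose phosphate genes held differences in both directions.

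Among 13 other glycogen enzymes and regulators the median was -0.15, with 2 genes above and 2 below both controls. Phkb, the beta subunit of phosphorylase kinase, differed by 1.08 (SE 0.69). Prkag1, a subunit of AMP-activated kinase, differed by -0.65 (SE 0.36), and Ppp1ca, a catalytic subunit of the phosphatase that acts on synthase and phosphorylase, by -0.57 (SE 0.30). The 13 hypoxia and insulin signalling genes had a median of -0.36, with 0 above and 4 below both controls. Akt2, a kinase of insulin signalling, differed by -1.58 (SE 0.72), with -0.47 and -2.02 in its other probe sets, Vegfa, a hypoxia-induced growth factor, by -0.77 (SE 0.37), and Bnip3, another hypoxia-induced gene, by -0.46 (SE 0.36).

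Of other genes of glucose entry and interconversion, 5 passed the filter, with a median of 0.26, 1 above and 1 below both controls. Pck2, the mitochondrial phosphoenolpyruvate carboxykinase, differed by 1.05 (SE 0.45), with -0.18 in its other probe set. Gpd2, a glycerol phosphate dehydrogenase, and Pklr, the liver and red cell pyruvate kinase, were left out as dim, with differences of -1.29 and -0.87. The other probe set of Gpd2, dim as well, differed by 0.06, and that of Pklr was at the floor on all 4 arrays.

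The routes that burn pyruvate and fatty acids gave medians near that of the members. It was -0.12 over 18 citric acid cycle genes, with 3 above and 4 below both controls, and -0.16 over 20 genes of fatty acid oxidation, with 3 above and 4 below. In the cycle, citrate synthase Cs differed by -0.81 (SE 0.35), with -0.98 and -3.04 in its other probe sets, and the succinate dehydrogenase subunits Sdhc and Sdha by -0.76 (SE 0.29) and -0.61 (SE 0.28). In fatty acid oxidation Hadh differed by -1.59 (SE 0.37) but by 0.81 in its dim probe set, Etfdh, which passes electrons to ubiquinone, by -1.24 (SE 0.38), and Eci1, an enoyl-CoA isomerase, by 0.65 (SE 0.29), with -0.84 in a dim probe set. The difference between the members and these lists was not tested.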

How the data were processed

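Total RNA of 4 samples, 2 per group, was read on 1 Affymetrix rat array each. The deposited values are linear intensities, 1 for each probe set on each array. How the authors derived and scaled them from the images is not stated in the labels or files used here. Intensities were quantile normalized, floored at 23.4, their 20th percentile, and converted to log2. Of 15875 probe sets, 9 Affymetrix control probe sets and the dimmest 40% of the rest were left out, and 9519 were tested with limma 3.58.1 (lmFit, eBayes with an intensity trend) under R 4.3.3, fibronectin against control, two-sided, adjusted by the Benjamini-Hochberg method. A run of the fit on simulated arrays with independent noise checked only that added shifts were recovered, not its error rate on these arrays. Genes were named by the platform annotation where a probe set had 1 symbol (12783 probe sets, with several symbols for 312 and none for 2771). Symbols of all 35 members in it matched the GRCr8 gene table. All members are named. Of each neighbouring list, the 3 genes with the largest difference without overlap, dim ones included, are named. The number of arrays limits precision. Members and lists were chosen with earlier results of these data known. Alternatives covered scaling, filter, floor, variance model, threshold, array weights, probe sets and arrays left out.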

Additional observations from a re-analysis of the deposited data

How the results depend on the processing

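With the replicate number as a block, 234 probe sets passed limma's threshold of 0.05 in place of 0, and 1 member gene, Pygm, did, with a Benjamini-Hochberg adjusted p of 0.00868. The numbers are not stated to mark shared cultures. Deviations from the group means of arrays with the same number correlated at 0.27 over 9519 probe sets. No member passed in the other settings tried, namely other scalings, filters, floors, variance models, array weights, a threshold of 0.10, the mean over probe sets and each array left out. With 1 array left out, where the single array of a group borrows its spread from the 2 arrays of the other, 0 to 337 probe sets passed, the most without fibronectin replicate 1. The members' median difference was 0.20 on the deposited scale and 0.15 after a median shift, and ran from -0.15 to 0.12 with 1 array left out. Over all tested probe sets the median was 0.06 on the deposited scale and 0.01 after a median shift. Genes that differed by at least 1 without overlap numbered 1 with the stricter filter, which leaves out 60%, or with an offset of 50, and 2 to 6 with 1 array left out. Of 30 members, 15 kept their sign throughout, among them Pygm, Gsk3b, Pgk1, Pgam1, Pfkp and Ugp2. In groups without overlap, as in the genes just named, the sign is bound to hold whichever array is left out. On the deposited scale the sign turned for Hk1 (0.047), Aldoa (0.40), Eno1 (0.29) and Ldhb (0.16), and after a median shift for Aldoa (0.36), Eno1 (0.24) and Ldhb (0.11). With the mean over probe sets it turned for Slc2a4 (-0.34) and Pgm1 (-0.29). With 1 array left out, differences ran from -0.63 to 1.33 for Slc2a4, -0.51 to 0.43 for Hk1, -0.28 to 0.37 for Gpi, -0.77 to 0.55 for Pfkl, -0.44 to 0.051 for Aldoa, -0.20 to 0.68 for Pgam2, -0.40 to 0.27 for Eno1, -0.70 to 0.27 for Eno2, and -0.018 to 0.30 for Ldha. They ran from -0.92 to 0.41 for Pygb, -0.32 to 0.13 for Gys1, -0.26 to 0.53 for Gyg1, -0.20 to 0.41 for Pgm1 and -0.37 to 0.48 for Gbe1. The cause was not tested. For Hk2, 1 fibronectin value was at the floor and the other just above it, and for the dimmer Pfkm probe set both were just above it. The size of those differences is therefore uncertain. The median over all 34 members with a probe set, an alternative added after seeing the data, was -0.05.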
